A study of Sus scrofa with 9 samples.

Results

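The expression of 10 genes of triglyceride synthesis, lipid droplets and fat breakdown was followed in pig liver: GPAM, LPIN1, LPIN2, DGAT1, DGAT2, MOGAT2, PNPLA2, PLIN2, CIDEB and CIDEC. They were taken by gene symbol from a deposited table of read counts, and all 10 were found among its 29837 symbols. Liver RNA of 9 female pigs aged 2 years was sequenced, 1 library per animal: 4 were MIDY and 5 were wild type (WT). MIDY, or mutant INS gene-induced diabetes of youth, was modelled by a C94Y transgene, a mutant form of the insulin gene. Diabetic animals received short and long acting insulin during the day, so genotype, diabetes and insulin treatment cannot be told apart. The promoter of the transgene, the number of founder lines, and the time from the last meal or insulin dose to sampling were not used here, as the labels do not state them.

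As background, the liver makes most triglyceride by adding fatty acids to glycerol phosphate. GPAM, on the mitochondrial outer membrane, adds the first fatty acid, AGPAT enzymes add the next, the lipins (LPIN1, LPIN2) remove the phosphate to give diacylglycerol, and DGAT1 and DGAT2 add the last fatty acid. MOGAT2 feeds a side route that starts from monoacylglycerol and is best known from the small intestine. The product is kept in droplets coated by proteins such as PLIN2, is moved onto very low density lipoprotein with the help of CIDEB, is gathered into larger droplets by CIDEC, and is first attacked by PNPLA2, the adipose triglyceride lipase.

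Libraries held 14115415 to 19533463 counts. Levels are given as CPM, the counts of a gene per 1e6 counts of its library after TMM scaling, and differences as log2 fold changes of MIDY over WT with the standard error (SE) from edgeR's quasi-likelihood test. Calls were made at a Benjamini-Hochberg adjusted p below 0.05 over 14100 tested genes. The tissue label was checked on 8 hepatocyte markers, all present, whose summed level was 142911 to 169019 CPM in MIDY and 112360 to 168069 CPM in WT. No 2 libraries held identical counts. In whole liver, fewer cells of a type and less RNA per cell cannot be told apart.

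None of the 9 members with enough counts to be tested was called, where 1.17% of all tested genes were. At an unadjusted p below 0.05, CIDEB and PNPLA2 stood higher in MIDY (2 of 9; 8.15% of all tested genes) and GPAM stood lower (1 of 9; 8.00% of all tested genes). MIDY and WT levels were fully apart for PNPLA2 on the higher side (3.72% of all tested genes) and for GPAM on the lower side (2.63% of all tested genes). DESeq2 called GPAM lower and no member higher, where it called 2.01% of all tested genes lower and 2.52% higher, and limma voom called no member. The median log2 fold change of the 9 members was 0.07, beside -0.005 for all tested genes, with 5 members above 0 and 4 below.

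**Figure D1:**
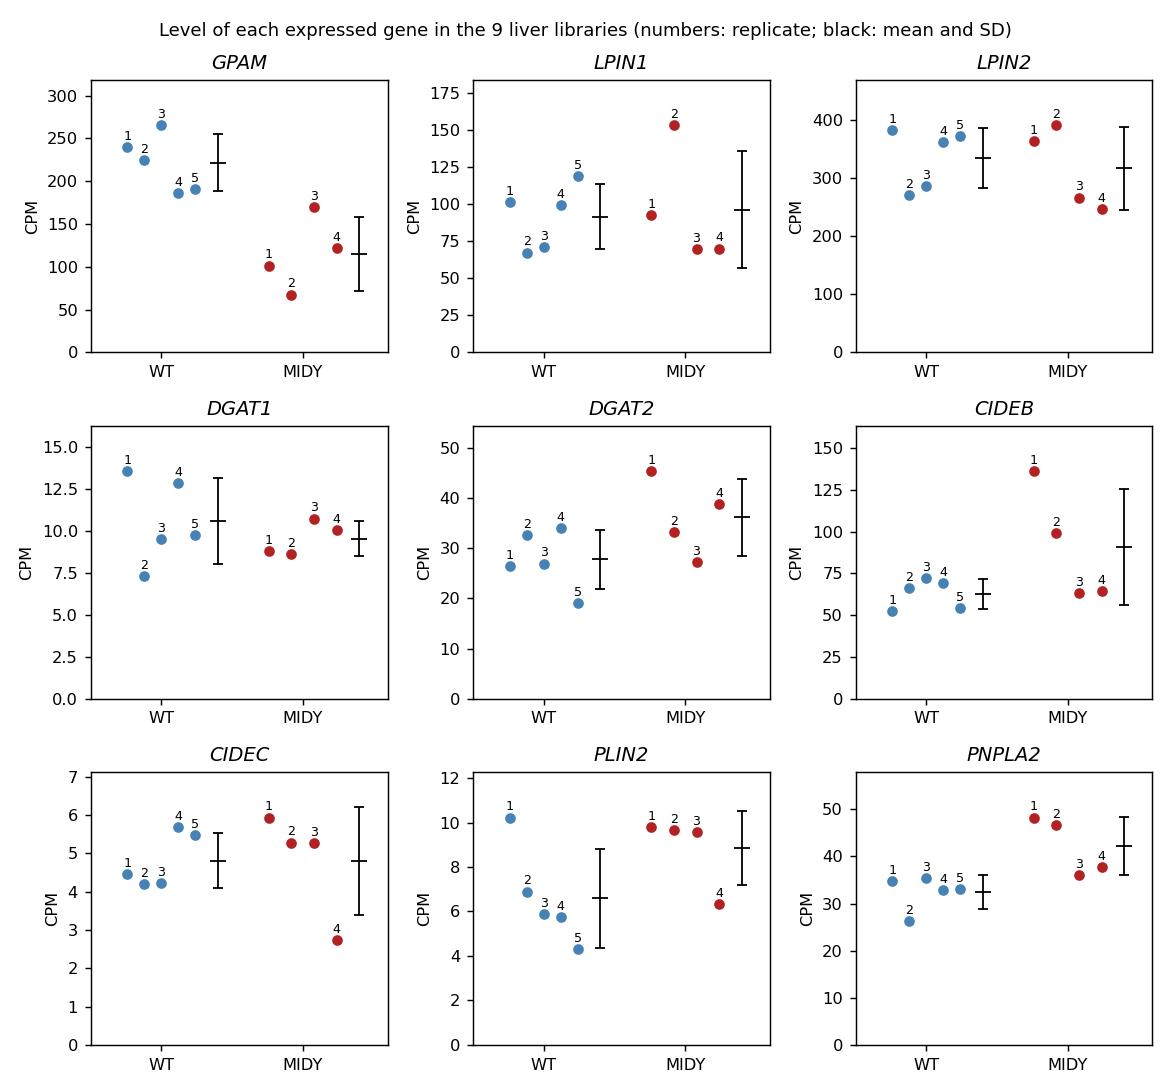
Level in CPM (vertical axes, from 0) of the 9 members with counts in each WT (blue, n = 5) and MIDY (red, n = 4) library; numbers are replicates, and the black mark and bar are mean and SD. GPAM separates the groups downward and PNPLA2 upward, CIDEB is high in MIDY replicates 1 and 2 only, and the other panels overlap.

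The first acylation step showed the largest difference among the members. GPAM (chromosome 14, 122538600 to 122582390 on Sscrofa11.1) stood at 101, 67.5, 170.2 and 122 CPM in MIDY replicates 1 to 4 and at 239.9, 225, 265, 186 and 191 CPM in WT replicates 1 to 5. Every MIDY library lay below every WT library, with MIDY replicate 2 the lowest and MIDY replicate 3 the nearest to WT. The means were 115 ± 43.0 CPM in MIDY (SD, n = 4) and 222 ± 33.3 CPM in WT (SD, n = 5). The log2 fold change was -0.94 ± 0.23 (SE), a fitted ratio of 0.521, with a 95% interval from -1.44 to -0.45, and the edgeR adjusted p was 0.0757. The difference therefore missed the threshold with all libraries, and GPAM ranked 279 by p among the tested genes. Without MIDY replicate 3 it passed, at -1.19 ± 0.19 (SE; edgeR adjusted p = 0.0343), where 0.0557% of the genes tested in that fit were called lower. DESeq2 gave -0.94 ± 0.23 (SE; DESeq2 adjusted p = 0.0024). In the fits that left out another library, and without both WT replicates 1 and 2, the edgeR adjusted p was 0.0975 to 0.185 and the sign was kept.

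Neither of the 2 lipins separated the groups. LPIN1 (chromosome 3, 124940557 to 125074137) stood at 92.4, 153, 69.6 and 70.0 CPM in MIDY and at 102, 67.3, 70.7, 99.2 and 119 CPM in WT. Only MIDY replicate 2 lay outside the WT range, and the log2 fold change was 0.07 ± 0.26 (SE; 95% interval -0.49 to 0.64; edgeR adjusted p = 0.924). Its sign turned without that library, to -0.24. LPIN2 (chromosome 6, 103625725 to 103728151), a lipin prominent in liver, stood at 364, 392, 267 and 246 CPM in MIDY and at 384, 271, 287, 362 and 372 CPM in WT. In both groups its libraries fell into a high and a low part, and the log2 fold change was -0.08 ± 0.16 (SE; 95% interval -0.43 to 0.27; edgeR adjusted p = 0.862).

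The enzymes of the last step had estimates of opposite sign, neither of them called. DGAT1 (chromosome 4, 452890 to 463665) stood at 8.80, 8.61, 10.7 and 10.1 CPM in MIDY and at 13.6, 7.29, 9.53, 12.9 and 9.77 CPM in WT. The MIDY values lay inside the WT range, with a log2 fold change of -0.14 ± 0.18 (SE; edgeR adjusted p = 0.744). DGAT2 (chromosome 9, 10032163 to 10066082), which sits largely in the endoplasmic reticulum and on droplets, stood at 45.3, 33.2, 27.3 and 38.9 CPM in MIDY and at 26.4, 32.6, 26.9, 34.0 and 19.0 CPM in WT. MIDY replicates 1 and 4 were above all WT libraries, and the log2 fold change was 0.38 ± 0.18 (SE; 95% interval -0.01 to 0.77; edgeR adjusted p = 0.321).

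MOGAT2 (chromosome 9, 9937654 to 9951679) lies next to DGAT2 in the reference, 80483 bases away with 2 other gene models between them, yet it had 0 counts in all 9 libraries. A count of 0 allows up to 3 counts, which is 0.150 to 0.209 CPM in a single library and 0.0199 CPM over all of them, for counting error alone. The long non-coding LOC106504812 overlaps MOGAT2 by 7754 bases and also had 0 counts. Whether the 0 of MOGAT2 reflects the level of the transcript or the gene models used for counting cannot be told from the table. MOGAT2 could not be tested, and no ratio was formed with it. Its relative MOGAT1, named here after its values were seen, was detected near 1 CPM, at 0.936 ± 0.289 CPM in MIDY (SD, n = 4) and 0.565 ± 0.324 CPM in WT (SD, n = 5; edgeR adjusted p = 0.464). Of 5 enterocyte markers in the table, FABP2 and SI were also at 0 in all libraries, and the summed level of the 5 was 0.0624 to 0.416 CPM in MIDY and 0.113 to 0.414 CPM in WT.

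Among the droplet proteins that are members, CIDEB had the highest fold change, while the estimate for CIDEC lay near 0. CIDEB (chromosome 7, 74982941 to 74985776) stood at 136, 99.3, 63.3 and 64.4 CPM in MIDY and at 52.3, 66.2, 72.0, 69.2 and 54.5 CPM in WT. MIDY replicates 1 and 2 were above all WT libraries, whereas MIDY replicates 3 and 4 lay within the WT range. The means were 90.8 ± 34.5 CPM (SD, n = 4) and 62.8 ± 8.90 CPM (SD, n = 5), with a log2 fold change of 0.53 ± 0.22 (SE; 95% interval 0.05 to 1.005; edgeR adjusted p = 0.261). Without MIDY replicate 1 the log2 fold change was 0.27. CIDEC (chromosome 13, 66141836 to 66149801), best known from fat cells and fatty liver, stood at 5.93, 5.27, 5.27 and 2.73 CPM in MIDY and at 4.45, 4.20, 4.21, 5.67 and 5.48 CPM in WT. MIDY replicate 1 lay above the WT range and MIDY replicate 4 below it, and the log2 fold change was -0.01 ± 0.22 (SE; 95% interval -0.49 to 0.48; edgeR adjusted p = 0.995).

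PLIN2 (chromosome 1, 203683867 to 203709277), the droplet coat whose protein is stable only on droplets, stood at 9.80, 9.65, 9.59 and 6.35 CPM in MIDY and at 10.2, 6.89, 5.87, 5.74 and 4.29 CPM in WT. MIDY replicates 1 to 3 were close together and above all WT libraries except WT replicate 1. The log2 fold change was 0.42 ± 0.23 (SE; 95% interval -0.07 to 0.92; edgeR adjusted p = 0.394). It was 0.62 without WT replicate 1 and 0.73 without both WT replicates 1 and 2, still with no call (edgeR adjusted p = 0.131 and 0.148).

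The lipase PNPLA2 (chromosome 2, 513065 to 517962) stood at 48.2, 46.7, 36.0 and 37.8 CPM in MIDY and at 34.8, 26.3, 35.3, 32.8 and 33.1 CPM in WT. The groups did not overlap, but the lowest MIDY library and the highest WT library were less than 1 CPM apart, and MIDY replicates 1 and 2 carried most of the distance. The means were 42.2 ± 6.18 CPM (SD, n = 4) and 32.5 ± 3.63 CPM (SD, n = 5), with a log2 fold change of 0.38 ± 0.12 (SE; 95% interval 0.11 to 0.65; edgeR adjusted p = 0.165). No alternative setting gave a call for PNPLA2 (edgeR, DESeq2 or limma voom adjusted p 0.104 to 0.349).

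**Figure D2:**
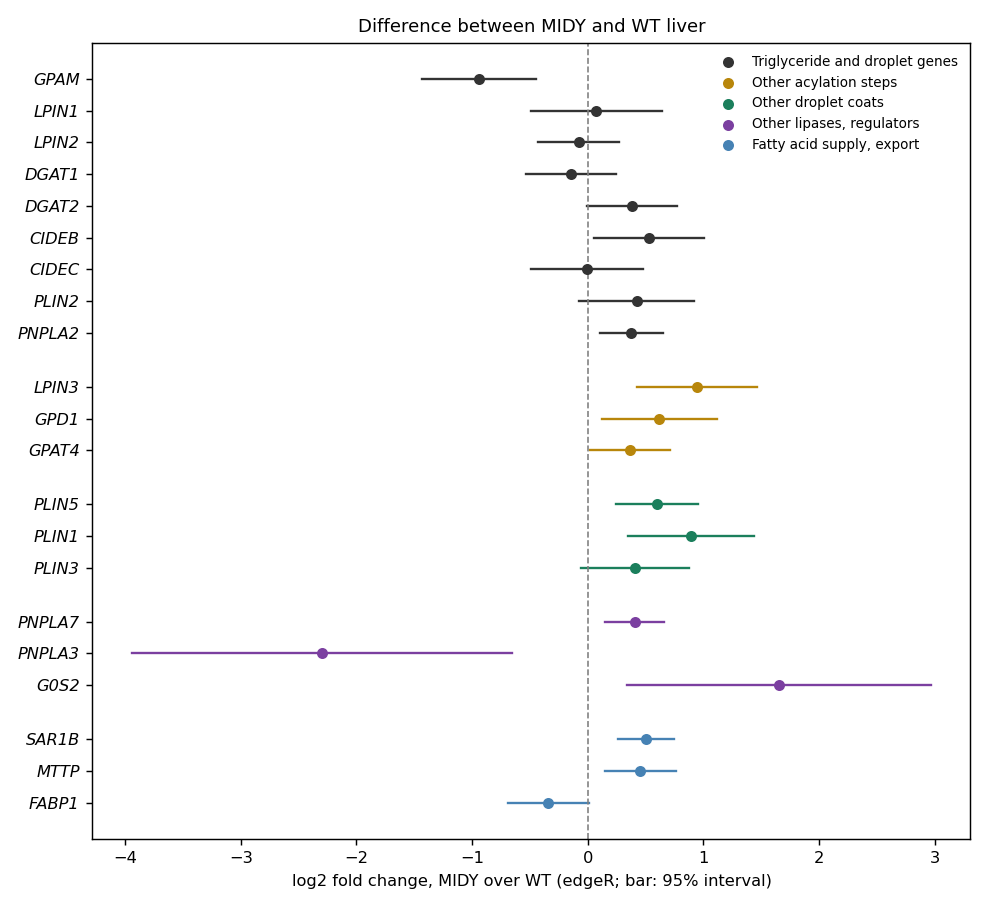
Log2 fold change of MIDY over WT (horizontal axis; points are edgeR estimates, bars 95% intervals) for the 9 tested members and for the 3 genes with the smallest p in each of 4 other pathway lists. GPAM at -0.94 lies opposite to LPIN3 at 0.94 and PLIN1 at 0.90, and the bars of PNPLA3 and G0S2 are the widest.

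Count ratios within a library do not move with the scaling between libraries. They are not corrected for transcript length, so only their differences between libraries are read. The log2 ratio of LPIN2 to LPIN1 was 1.35 to 1.98 in MIDY and 1.65 to 2.02 in WT, and the low end in MIDY was replicate 2, the library with the highest LPIN1. That of DGAT2 to DGAT1 was 1.34 to 2.36 in MIDY and 0.96 to 2.16 in WT, with means of 1.90 ± 0.42 (SD, n = 4) and 1.40 ± 0.49 (SD, n = 5). That of CIDEC to CIDEB was -4.56 to -3.59 in MIDY and -4.10 to -3.31 in WT. In all 3 pairs of relatives the groups overlapped. After the levels were seen, 3 ratios to GPAM were added. The ratio of PNPLA2 to GPAM, which sets the first lipase against the first acylation step, was -2.24 to -0.53 on the log2 scale in MIDY and -3.10 to -2.51 in WT, so every MIDY library lay above every WT library. The ratio of CIDEB to GPAM was -1.428 to 0.56 in MIDY and -2.20 to -1.431 in WT, so that the groups only just parted. The ratio of DGAT2 to GPAM was -2.64 to -1.02 in MIDY and -3.33 to -2.46 in WT, and there the groups overlapped. The separation of the PNPLA2 to GPAM ratio was fixed in advance, since PNPLA2 parted the groups upward and GPAM downward. These genes were picked for their values in these libraries, so the ratios to GPAM are a description.

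**Figure D3:**
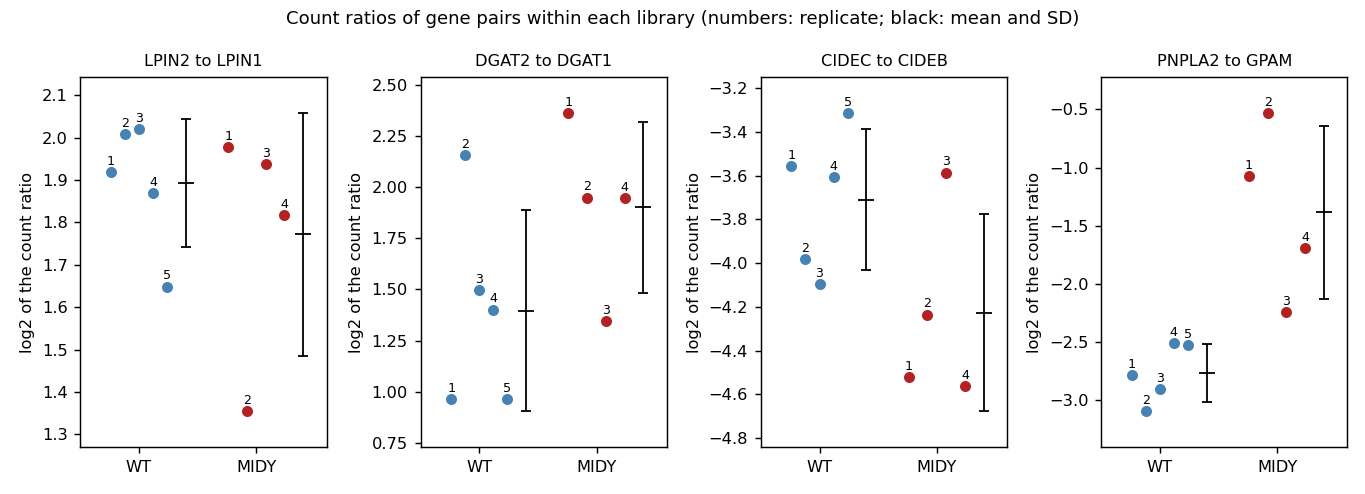
Log2 of the count ratio of 4 gene pairs in each WT (blue, n = 5) and MIDY (red, n = 4) library; numbers are replicates, and the black mark and bar are mean and SD. Groups overlap in the first 3 panels, and in the PNPLA2 to GPAM panel all MIDY libraries (-2.24 and above) lie over all WT libraries (-2.51 and below). This separation follows from the levels of PNPLA2 and GPAM, which each part the groups.

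The members differed in how evenly they were expressed within a group. In MIDY the coefficient of variation was 37.3% for GPAM, 40.9% for LPIN1 and 38.1% for CIDEB, against 15.0%, 23.9% and 14.2% in WT. DGAT1 and PLIN2 had the opposite order, with 10.7% and 18.9% in MIDY and 24.3% and 33.7% in WT. PNPLA2 was the most even over both groups, at 14.7% and 11.2%. With 4 and 5 animals these spreads were not tested. MIDY replicate 1 held the highest MIDY level for 5 of the 9 members (DGAT2, CIDEB, CIDEC, PLIN2 and PNPLA2), and MIDY replicate 2 the highest LPIN1 and LPIN2 with the lowest GPAM.

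The rest of the pathway was described by 4 lists of other genes, with 56 symbols, of which 53 were in the table and 47 could be tested. None of the 47 was called by edgeR. At an unadjusted p below 0.05, 9 were higher and 1 lower in MIDY, beside 8.15% and 8.00% of all tested genes. The groups did not overlap for 4 on the higher side and 0 on the lower, beside 3.72% and 2.63% of all tested genes. The log2 fold changes of 29 were above 0 and those of 18 below, with a median of 0.10. As among the members, MIDY replicate 1 was often the highest MIDY library, for 25 of the 47 genes (53.2%, beside 28.8% of all tested genes). MIDY replicate 4 was the lowest for 21 of the 47 (44.7%, beside 27.0%). Among the 9 tested members, MIDY replicate 3 was the lowest for 4 and MIDY replicate 4 for 3. The part of single libraries in these differences was tested only by leaving each out.

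In the list of other acylation steps, 11 of 13 genes were tested, none was called and the median log2 fold change was 0.34. LPIN3, the third lipin, stood at 11.9, 10.1, 13.6 and 5.35 CPM in MIDY and at 6.26, 4.75, 4.07, 5.86 and 5.71 CPM in WT. MIDY replicates 1 to 3 lay well above WT and MIDY replicate 4 within it, and the log2 fold change was 0.94 ± 0.24 (SE; edgeR adjusted p = 0.0807). It was called without MIDY replicate 4, at 1.15 ± 0.17 (SE; edgeR adjusted p = 0.0106), and by DESeq2 (0.94 ± 0.26, SE; DESeq2 adjusted p = 0.0132). The levels of the groups overlapped for all 3 lipins, and the difference between the lipins was not tested. GPD1, which makes glycerol phosphate from a glycolytic intermediate, had a log2 fold change of 0.62 ± 0.23 (SE; edgeR adjusted p = 0.211), and 0.32 to 0.76 with 1 library left out. GPAT4, the glycerol phosphate acyltransferase of the endoplasmic reticulum that performs the same step as GPAM, had one of 0.36 ± 0.16 (SE; edgeR adjusted p = 0.290), with 36.0 to 48.7 CPM in MIDY and 25.0 to 43.3 CPM in WT. The values of GPAM and GPAT4 thus had opposite signs.

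In the list of other droplet coats and storage proteins, 11 of 13 genes were tested, none was called and the median log2 fold change was 0.15. PLIN5, a coat that links droplets to mitochondria, stood at 19.5, 13.0, 13.5 and 14.4 CPM in MIDY and at 8.00, 10.9, 9.25, 12.5 and 9.15 CPM in WT. The groups did not overlap, with a log2 fold change of 0.60 ± 0.16 (SE; edgeR adjusted p = 0.0963), and DESeq2 called it (0.60 ± 0.18, SE; DESeq2 adjusted p = 0.0322). PLIN1, the coat typical of fat cells, was low but did not overlap either, at 1.52 to 2.87 CPM in MIDY and 1.10 to 1.38 CPM in WT (0.90 ± 0.25 log2, SE; edgeR adjusted p = 0.108). PLIN3 had a log2 fold change of 0.41 ± 0.21 (SE; edgeR adjusted p = 0.383), and 0.13 to 0.58 with 1 library left out. The 6 adipocyte markers, PLIN1 among them, summed to 4.23 to 6.05 CPM in MIDY and 3.05 to 4.59 CPM in WT. ADIPOQ had 1 count over all libraries, LEP had 4 and CIDEA had 58, too few to be tested. FABP4 and LIPE had log2 fold changes of 0.42 ± 0.30 and -0.40 ± 0.45 (SE; edgeR adjusted p = 0.529 and 0.714). The part of fat cells in these values was not tested.

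In the list of lipases and their regulators, 11 of 12 genes were tested, none was called and the median log2 fold change was -0.01. PNPLA7, a lysophospholipase of the family of PNPLA2, stood at 38.03 to 43.1 CPM in MIDY and 26.5 to 39.3 CPM in WT (0.40 ± 0.12 log2, SE; edgeR adjusted p = 0.123). PNPLA3, a droplet protein of the same family, stood at 0.998, 0.833, 2.79 and 1.52 CPM in MIDY and at 21.6, 5.15, 4.83, 1.95 and 5.25 CPM in WT. WT replicate 1 alone was far above the rest, and the log2 fold change of -2.30 ± 0.72 (SE; edgeR adjusted p = 0.175) became -1.47 ± 0.41 without it (SE; edgeR adjusted p = 0.100). DESeq2 called PNPLA3 lower with all libraries (DESeq2 adjusted p = 0.0329). G0S2, the protein inhibitor of PNPLA2, had few counts, 0.843 to 2.29 CPM in MIDY and 0.0695 to 1.04 CPM in WT (1.65 ± 0.60 log2, SE; edgeR adjusted p = 0.207). ABHD5, the activator of PNPLA2, was named here after its values were seen. It stood at 77.6, 29.2, 43.4 and 32.5 CPM in MIDY and at 17.1 to 43.0 CPM in WT (0.65 ± 0.33 log2, SE; edgeR adjusted p = 0.371). MIDY replicate 1 alone lay far above the WT range. The lipase, its activator and its inhibitor thus all had values above 0 with no call.

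In the list of fatty acid supply and triglyceride export, 14 of 15 genes were tested, none was called and the median log2 fold change was 0.03. SAR1B, a small GTPase that carries lipoproteins out of the endoplasmic reticulum, stood at 359.9, 340.0, 357 and 309 CPM in MIDY and at 274, 213, 268, 217 and 233 CPM in WT. The groups were clearly apart, and the log2 fold change of 0.50 ± 0.11 (SE; edgeR adjusted p = 0.0504) missed the threshold narrowly. It was called in 7 of the 17 alternative settings, DESeq2 and limma voom among them (DESeq2 adjusted p = 0.001, limma voom adjusted p = 0.0241). MTTP, which loads triglyceride onto apolipoprotein B, stood at 356 to 581 CPM in MIDY and 289 to 393 CPM in WT (0.46 ± 0.14 log2, SE; edgeR adjusted p = 0.147). FABP1, the fatty acid binding protein of the hepatocyte cytosol, had a log2 fold change of -0.34 ± 0.16 (SE; edgeR adjusted p = 0.324).

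**Figure D4:**
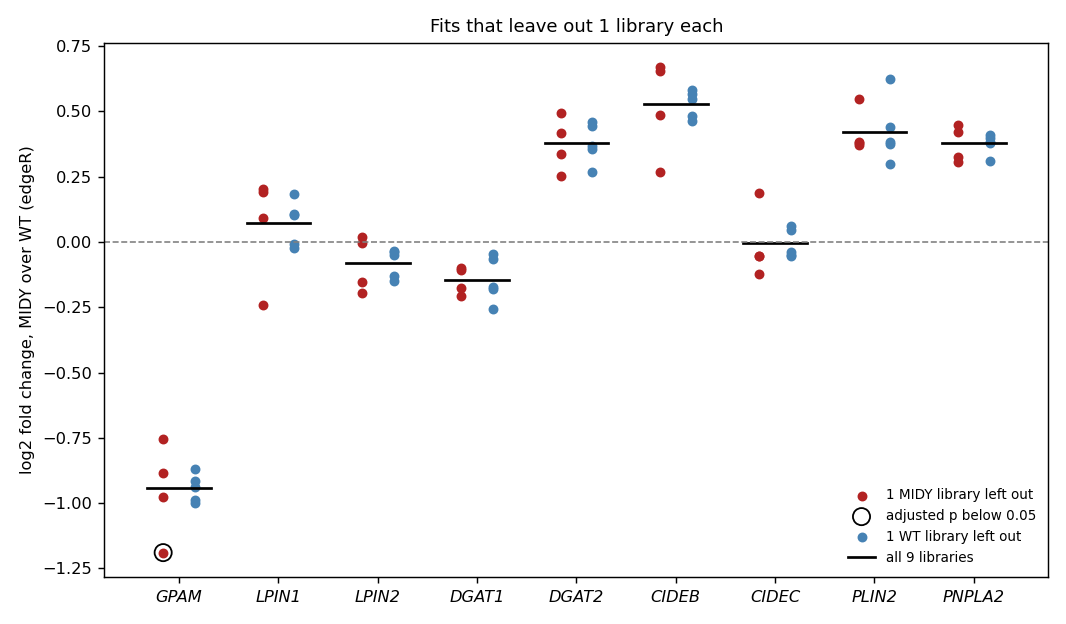
Log2 fold change of MIDY over WT (vertical axis) of the 9 tested members with all 9 libraries (black line) and with 1 MIDY (red) or 1 WT (blue) library left out; a ring marks an adjusted p below 0.05. Only GPAM without MIDY replicate 3, at -1.19, is ringed, and LPIN1, LPIN2 and CIDEC cross 0.

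Likeness to the pattern of GPAM, the member with the smallest p, was measured as the root mean square difference of centred log2 CPM over the 9 libraries. The 3 nearest genes at a mean of at least 1 CPM were GNA15, LOC110255180 and EFEMP1, at 0.152, 0.164 and 0.213. GNA15, a G protein alpha subunit of blood cells, stood at 0.555 to 1.32 CPM in MIDY and 1.64 to 2.48 CPM in WT (-0.90 ± 0.30 log2, SE; edgeR adjusted p = 0.168). LOC110255180 stood at 4.58 to 10.6 CPM in MIDY and 12.4 to 17.5 CPM in WT and was called lower (-1.10 ± 0.24 log2, SE; edgeR adjusted p = 0.0479). EFEMP1, an extracellular matrix glycoprotein, stood at 1.39 to 3.57 CPM in MIDY and 3.62 to 5.31 CPM in WT (-0.87 ± 0.27 log2, SE; edgeR adjusted p = 0.140). All 3 were picked for being lower in the libraries where GPAM was lower.

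Markers of other cells of the liver, and of muscle, were summed beside these values. The 9 stellate cell markers, none at 0, summed to 430.2 to 499 CPM in MIDY and 453 to 645 CPM in WT. At an unadjusted p below 0.05, 4 were lower and 0 higher (8.00% and 8.15% of all tested genes), and none was called. The 8 macrophage markers, none at 0, summed to 428 to 525 CPM in MIDY and 479.9 to 730.2 CPM in WT. Of them, 3 were lower and 1 higher at that level, beside the same shares of all tested genes, and none was called. The 4 skeletal muscle markers in the table summed to 0.524 to 1.32 CPM in MIDY and 0.0695 to 0.897 CPM in WT, with MYH7 at 0 in all libraries. The part of these cells in the values of GPAM, PLIN2 and the other members was not tested.

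Some member counts could hold reads of other genes or lack reads of their own. The strand setting of the counting and its handling of shared reads are not given. CIDEB overlaps LTB4R2 by 871 bases and NOP9 by 29 bases, and these had log2 fold changes of -0.20 ± 0.36 and 0.11 ± 0.20 (SE; edgeR adjusted p = 0.839 and 0.853). LTB4R2 and NOP9 stood at 1.77 and 3.31 CPM in MIDY (means of 4 libraries). The part of shared reads in the counts of CIDEB was not tested. DGAT1 shares 135 bases with HSF1 (0.07 ± 0.16 log2, SE; edgeR adjusted p = 0.888), and CIDEC shares 3063 bases with the long non-coding LOC106505669 (0.30 ± 0.41 log2, SE; edgeR adjusted p = 0.770). PLIN2 spans a pseudogene, LOC100737553, with 50 counts over all libraries, and LPIN1 spans LOC110260056, with 2. MOGAT2 shares 7754 bases with the long non-coding LOC106504812, and both had 0 counts. No other gene model overlaps GPAM, LPIN2, DGAT2 or PNPLA2.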

How the data were processed

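Per the labels' protocols, Trizol RNA of 9 pig livers was depleted of ribosomal RNA and made into Encore Complete (Nugen) libraries. Per the submitters' processing notes, STAR, HTSeq, DESeq2 and the build Sscrofa11.1 were used; their settings and versions, the annotation release and the strand of counting were not used here, as these notes do not state them. The table the authors deposited holds raw counts, whole numbers with no normalization, for 29837 symbols, each of which was found in RefSeq's Sscrofa11.1 gene table, the source of positions. Animals were grouped by the labelled genotype. Replicate numbers follow the order of the samples and pair nothing. Nothing in the labels gives litter, pen or batch.

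After filterByExpr, 14100 genes with 99.9% of the counts were left. They were scaled by TMM, and a robust quasi-likelihood model was fitted in edgeR 4.0.16 (R 4.3.3), with two-sided p-values and a common biological coefficient of variation of 21.5%. The SE is the log2 fold change over the square root of F, and intervals use the t quantile of the fit's degrees of freedom. CPM are counts over the TMM-scaled library size. The fit was tested on simulated data. Alternatives were RLE factors, total counts, the 10 most abundant genes out, no filter, a filter of 1 CPM in 4 libraries, limma 3.58.1 voom with sample weights, DESeq2 1.42.0 (adjusted p missing for 278 genes), and libraries left out. Beyond the members, the naming rule took the 3 genes of smallest p in each of 4 pathway lists and the 3 genes most like GPAM. MOGAT1 and ABHD5 were named outside this rule, after their values were seen. Some marker genes and the genes that overlap members are named as well. The members, lists and rules were chosen with earlier results of these data known.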

Additional observations from a re-analysis of the deposited data

Results flagged for a closer look

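In 2 of the 18 sets of libraries checked (9 members in each group), 1 library stood apart from the others by Dixon's test at the 95% level, where chance gives about 1 in 20 sets. PLIN2 in MIDY replicate 4 was 6.35 CPM with the next MIDY library at 9.59 CPM, a gap of 0.940 of the range of the 4 libraries. PNPLA2 in WT replicate 2 was 26.3 CPM with the next WT library at 32.8 CPM, a gap of 0.718 of the range of the 5 libraries.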

How the results depend on the processing

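Over 17 alternative settings, 141 of 153 values for the 9 tested members kept their sign and their side of the threshold. GPAM was called lower by DESeq2 and without MIDY replicate 3, so that 1 member in place of 0 was called lower in each. The log2 fold change of CIDEC turned to 0.0042 with no low-count filter and ranged from -0.12 to 0.19 with 1 library left out. LPIN1 turned to -0.074 with limma voom and -0.0061 without both WT replicates 1 and 2, and ranged from -0.24 to 0.20 with 1 library left out. LPIN2 ranged from -0.20 to 0.017 with 1 library left out. Of 203 values for the 12 other pathway genes named by rule, 192 kept sign and side, 11 gained a call and 0 turned. MOGAT1 and ABHD5 were not among them. Over all genes, the 115 called higher and 50 lower became 355 and 284 with DESeq2 and 42 and 24 without both WT replicates 1 and 2, 82 were lower with limma voom, and leaving out 1 library gave 34 to 152 higher and 4 to 107 lower. With total counts alone 114 were higher and 34 lower. The causes were not tested. No paired analysis was possible because the labels pair no animals of the 2 groups. PNPLA3, G0S2, PLIN1 and CIDEC have few counts per library, which adds counting error. How much of their SE this makes up was not tested.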
